A study of Homo sapiens with 12 samples.

Results

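Gene expression at day 20 was compared with that at day 15 in cultures of H9, an established human embryonic stem cell line, that were driven by cytokines toward γδ T cells. The comparison took the 3 day 20 libraries and the 3 day 15 libraries, 6 of the 12 libraries of the series, by the day in their labels, and both days carry the label T progenitor cells. All 6 are wild-type, cytokine-induced and placed in a single batch. Both days shared the same history. The stem cells, grown on mouse embryonic fibroblast feeders, were induced as aggregates with CHIR99021, BMP4, Activin A and the Rock inhibitor Y-27632, then given VEGF, then VEGF with bFGF, to which Flt3L, IL-7, SCF and SB431542 were later added. From day 10 on, the medium was MEM-α with fetal bovine serum, GlutaMAX, MAP, the cytokines SCF, Flt3L and IL-7 and DLL4, a ligand of Notch, renewed in part every other day. The labels describe no sort before RNA extraction, so each library is bulk RNA of whatever the culture held, and fewer cells of a type and less RNA per cell cannot be told apart. Nor do they say whether the 3 libraries of a day came from separate cultures, so p-values measure a spread between libraries that could be technical in part or whole.

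The T lineage is entered when a blood progenitor receives a Notch signal and IL-7, switches on factors such as TCF7, GATA3 and BCL11B, rearranges its receptor genes with the RAG recombinase and assembles the CD3 complex on the surface. Cultures that start from pluripotent cells can also hold megakaryocytes, which shed platelets, red cell precursors, granulocytes, macrophages, mast cells and the stroma and epithelium of other germ layers. The comparison of the days asks which families change while the label stays the same.

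Levels are CPM, counts scaled by library size and edgeR's TMM factors but not by gene length, and are compared only between days. Means are given ± SD over 3 libraries per day. Folds, log2 fold changes (day 20 minus day 15, ± standard error) and p-values adjusted over all tested genes come from edgeR's quasi-likelihood test, and a gene is called higher or lower at an adjusted p under 0.05. The 6 libraries held between 27351361 and 33045181 counts. A first principal component with 88% of the variance parted the days, and libraries correlated at 0.982 to 0.987 within a day and at 0.838 to 0.843 between days. Mitochondrially encoded transcripts took 5.29% to 5.8% of counts at day 20 and 3.46% to 3.61% at day 15, and cytosolic ribosomal protein transcripts 3.37% to 3.52% at day 20 and 1.17% to 1.2% at day 15. The TMM factors were 1.15 to 1.17 at day 20 and 0.753 to 0.759 at day 15. Scaling by library totals alone moved the median log2 fold change of all genes by 0.63, so changes smaller than that depend on the scaling.

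Most of the measured transcriptome differed between the days. Of 20183 genes tested, 8197 (40.6%) were called higher at day 20 and 7271 (36%) lower, 15468 (76.6%) in all, and the median log2 fold change was 0.10. With library totals alone the split was 11719 higher and 4530 lower, 72.1% of calls higher instead of 53%. At least 2-fold differences were called in 4781 genes (23.7%) that were higher and 4488 (22.2%) that were lower, and at least 10-fold differences in 665 (3.29%) that were higher and 1199 (5.94%) that were lower. For 15812 genes (78.3%) the libraries of the days did not overlap, so a lack of overlap sets no gene apart here. Of the called genes named below, only TRIM22 had libraries that overlapped between the days. Genes of a pathway are therefore read by how many moved the same way and how far. List counts are to be set against the 40.6% higher and 36% lower of all tested genes. A list near those shares is not set apart by its count. Across 60 lists of genes, which hold 1710 tested genes counted once, the median log2 fold change ran from -5.14 for platelet receptors to 2.76 for MHC class II genes.

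**Figure D1:**
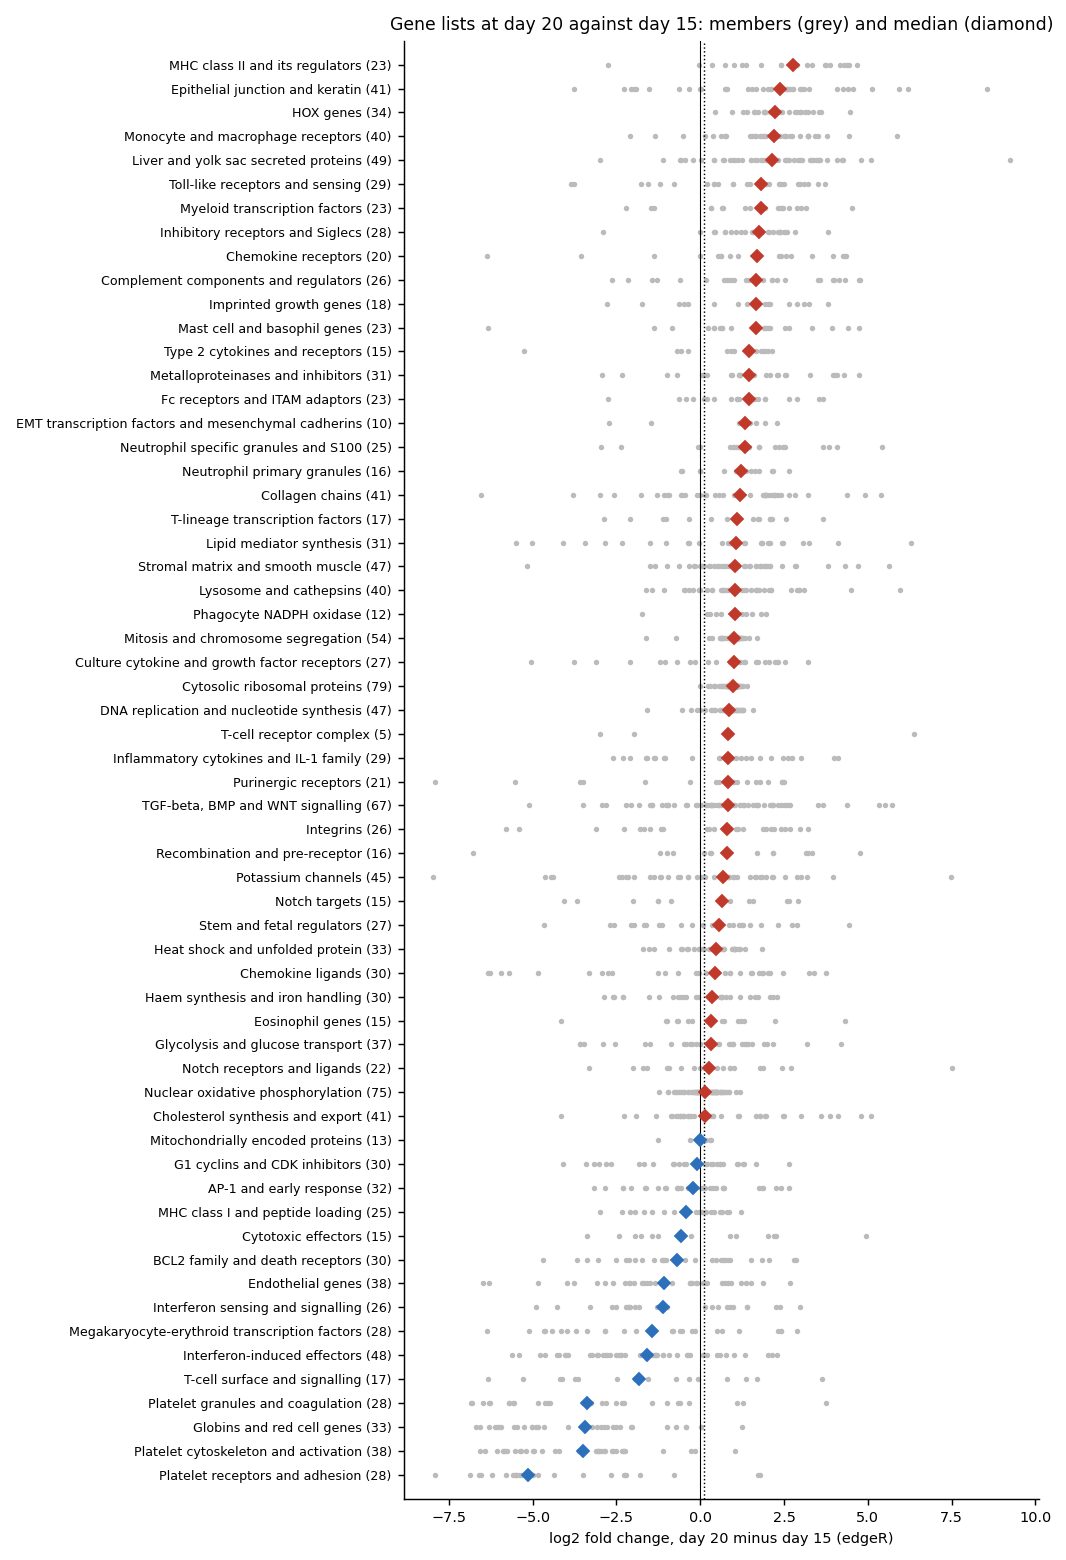
Each row is a gene list with its number of tested genes in brackets, grey points are the log2 fold changes of its members (day 20 minus day 15) and the diamond is their median, red above 0 and blue below. The dotted line marks the median of all tested genes, 0.10. Platelet and red cell lists lie lowest and MHC class II, epithelial and HOX lists highest.

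The label was checked first against T-cell markers. Of 14 markers, 4 were called higher at day 20 (CD3E, ZAP70, BCL11B and TCF7), 3 lower (CD247, TRDC and CD7), 2 were not called (CD2 and CD5) and 5 had too few counts to test (CD3D, CD3G, LCK, TRAC and TRBC2). Their levels summed to between 20.1 and 21.6 CPM per library at day 20 and between 18.8 and 19.5 CPM at day 15. CD3E, CD3G and TRBC2 had 0 counts in the day 15 libraries, a limit of 0.0433 CPM over that day. Megakaryocyte markers summed to between 389 and 398 CPM at day 20 and between 23165 and 24129 CPM at day 15, and neutrophil markers to between 17108 and 17411 CPM at day 20 and between 5176 and 5489 CPM at day 15. CD3D, CD3E, CD3G, LCK, TRAC, TRBC2, CD2, CD5 and BCL11B stayed below 1 CPM in all 6 libraries. The other markers, TCF7, TRDC, CD7, ZAP70 and CD247, were above 1 CPM on average on at least 1 day. The label is used below as the submitters' name only.

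Within the T-cell receptor complex the genes parted, with 3 of 5 tested genes higher and 2 lower. CD3E, the ε chain of CD3, read 0.304, 0.373 and 0.299 CPM at day 20, against 0, 0 and 0 CPM at day 15. That is 33 counts over the day 20 libraries and at least 7.51-fold above the limit of day 15 (adjusted p = 0.00072). CD247, the ζ chain, went the other way at 0.365, 0 and 0.299 CPM at day 20, against 1.86, 1.84 and 1.65 CPM at day 15 (7.99-fold lower, adjusted p = 0.00026). TRDC, the δ constant region (chromosome 14 from 22462932 to 22465787, GRCh38), read 0.943, 2.03 and 1.4 CPM at day 20, against 5.91, 6.19 and 5.35 CPM at day 15 (3.96-fold lower, adjusted p = 6e-06). The γ constant regions TRGC1 (24.8 CPM at day 20, 13.2 at day 15) and TRGC2 (13.9 CPM at day 20, 7.78 at day 15) were 1.87-fold and 1.79-fold higher, although reads can be split between these near-identical genes. The δ and γ constant genes of a γδ receptor therefore changed in opposite directions, each without overlap between the days.

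PTCRA, the invariant chain that pairs with a new β chain on immature thymocytes, showed the largest fall of the T-lineage lists. It read 1.82, 1.35 and 1.76 CPM at day 20, against 175, 184 and 189 CPM at day 15, a log2 fold change of -6.79 ± 0.09 (adjusted p = 1.2e-43). TRBC2, a β constant region, had 0 counts at day 15. In the same libraries 8 of 8 megakaryocyte markers were lower, and their part in the fall of PTCRA was not tested. On the recombination and pre-receptor list, which also holds CD1 genes, 12 of 16 tested genes were higher and 4 lower, with a median of 0.79. All 5 CD1 genes, which encode lipid-presenting molecules of cortical thymocytes and dendritic cells, were higher, among them CD1A (7.98 CPM at day 20, 0.283 at day 15, 27.3-fold) and CD1C (25 CPM at day 20, 2.47 at day 15, 10.2-fold). RAG1, a subunit of the recombinase, was lower (3.14 ± 0.994 CPM at day 20 against 5.52 ± 0.24 CPM at day 15, adjusted p = 0.0011), a call that library totals alone removed (log2 fold change -0.20), and RAG2 was too low to test. ADA, which clears adenosine in lymphoid precursors, was 3.24-fold higher and PRKDC, a kinase of end joining, 1.73-fold higher.

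Of 17 T-lineage transcription factors tested, 11 were higher and 5 lower (median 1.09). RUNX3, known for the CD8 and innate-like programmes, read 101, 98.6 and 104 CPM at day 20, against 19, 14.6 and 17.6 CPM at day 15 (5.88-fold, adjusted p = 5.4e-32). TCF7, an early Notch-induced factor, was 2.98-fold higher (9.92 ± 1.1 CPM at day 20 against 3.32 ± 0.699 CPM at day 15), IKZF3 4.22-fold, TOX 4.45-fold and SOX13, a factor of γδ T cells in the mouse, 3.29-fold. BCL11B, which marks T commitment, stood at 0.497 ± 0.183 CPM at day 20 against 0.111 ± 0.129 CPM at day 15 (adjusted p = 0.011), and without day 15 replicate 2 it was no longer called (log2 fold change 1.57). On the falling side stood GATA3 (2.16-fold lower), ETS1 (4.32-fold) and ZBTB16, the factor of innate-like T cells (34.2 ± 2.13 CPM at day 20 against 252 ± 7.66 CPM at day 15, 7.38-fold lower).

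T-cell surface and signalling genes fell further: 11 of 17 tested were lower and 4 higher, with a median of -1.83. GRAP2, an adaptor of SLP-76, read 22.7, 21.3 and 23.3 CPM at day 20, against 1786, 1797 and 1849 CPM at day 15, SLA2 was 39.5-fold lower, LAT 18-fold, FYN 17.2-fold and PRKCQ 13.3-fold. Several of these adaptors also serve platelet receptors, and in the same libraries 8 of 8 megakaryocyte markers were lower; their part in these falls was not tested. Among the higher genes were CD4, ZAP70 and RHOH, and of these CD4, which monocytes and macrophages carry too, had 178, 163 and 161 CPM at day 20, against 49.4, 53.5 and 52.9 CPM at day 15. CD28, the main co-stimulatory receptor, was lower (0.38 ± 0.258 CPM at day 20 against 4.78 ± 0.693 CPM at day 15), and so was CD7 (3.36 ± 0.37 CPM at day 20 against 5.53 ± 0.454 CPM at day 15), although CD7 lost its call with library totals alone (log2 fold change -0.10). Among cytotoxic effectors 5 of 15 tested were higher and 7 lower, or 4 lower with a stricter filter on low counts. PRF1, the pore-forming protein, was higher at 3.21 ± 0.859 CPM at day 20 against 0.655 ± 0.428 CPM at day 15 and GNLY, a granule peptide, lower at 1.39 ± 0.216 CPM at day 20 against 4.76 ± 0.505 CPM at day 15.

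**Figure D2:**
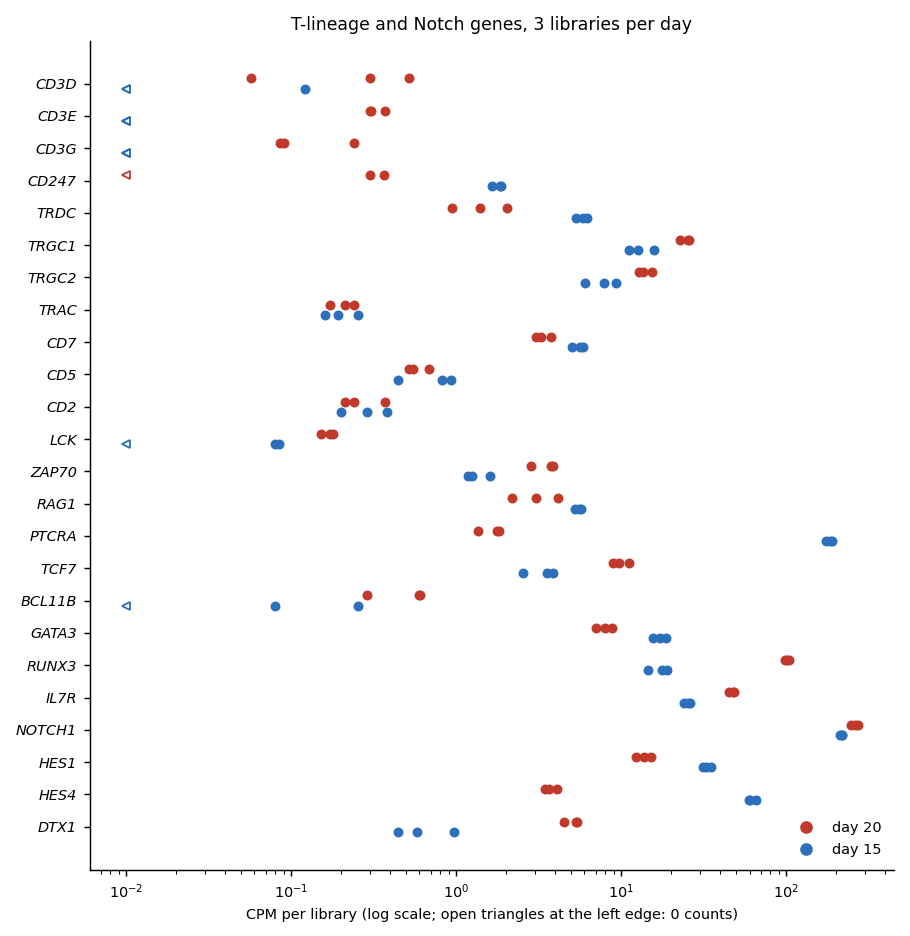
Points are CPM in single libraries on a log axis, with day 20 (red) drawn above day 15 (blue) for each gene, and open triangles at the left edge are libraries with 0 counts. PTCRA, HES4, TRDC and CD247 are lower at day 20 and RUNX3, TCF7 and DTX1 higher, while CD3D, CD3E and CD3G lie below 1 CPM on both days.

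Notch genes did not move as a block. Of 22 receptors, ligands and processing genes, 13 were higher and 8 lower (median 0.26). NOTCH2 was 3.65-fold higher (253 CPM at day 20, 69.5 at day 15) and the fringe enzyme LFNG 3.42-fold, while MAML3, a co-activator, was 9.9-fold lower and ADAM10, the protease that frees the Notch ectodomain, 3.25-fold lower. Of 15 targets tested, 9 were higher and 6 lower. The lower ones were the transcriptional repressors HES4, HEY2, HES5, HES1 and HEYL together with NRARP, which lost its call with library totals alone (log2 fold change -0.26), with HES4 at 3.68, 4.07 and 3.44 CPM at day 20, against 60.7, 59.7 and 65.7 CPM at day 15 (16.6-fold lower) and HES1 at 13.7, 15.1 and 12.3 CPM at day 20, against 35.1, 31.5 and 32.6 CPM at day 15 (2.42-fold lower). DTX1, known as a target in lymphoid cells, read 4.5, 5.3 and 5.44 CPM at day 20, against 0.97, 0.58 and 0.442 CPM at day 15 (7.61-fold higher), and the lymphoid GTPase gene GIMAP5 was 6.24-fold higher.

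Receptors for the cytokines of the medium and for related factors were mostly higher, 18 of 27 against 8 lower (median 1.00). KIT, the receptor of SCF, read 117, 114 and 120 CPM at day 20, against 21.1, 20.2 and 19.4 CPM at day 15 (5.79-fold higher, adjusted p = 6.9e-35). FLT3, the receptor of Flt3L, was 4.93-fold higher at a low level (2.76 ± 0.714 CPM at day 20 against 0.569 ± 0.346 CPM at day 15) and IL7R 1.86-fold higher (47.1 ± 1.65 CPM at day 20 against 25.3 ± 1.21 CPM at day 15). CSF1R, the receptor that macrophages need, had the largest rise of the list (9.41-fold), and IL6R (4.94-fold) and CSF3R (4.7-fold) were higher. KDR, a VEGF receptor (13.8-fold, 142 CPM at day 20, 1954 at day 15), and EPOR, the erythropoietin receptor (8.59-fold), were lower.

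Interferon-induced genes were lower at day 20 as a group. Type I interferon is made when cytosolic sensors of viral RNA or innate DNA sensors are engaged, and it acts through a receptor and a complex with IRF9 on promoters that carry an interferon-stimulated response element. Of 48 interferon-induced effectors tested, 38 were lower, 8 higher and 2 not called, with a median of -1.58; library totals alone gave 13 higher. IFIT1, which binds foreign RNA caps (ENSG00000185745, chromosome 10 from 89392546 to 89406486), read 52.1, 50.5 and 48.7 CPM at day 20, against 2508, 2503 and 2463 CPM at day 15. That was a log2 fold change of -5.63 ± 0.042 (adjusted p = 1.5e-52), and IFIT2 (42.4-fold), IFIT3 (27.4-fold) and IFIT5 (16.3-fold) were lower with it. The deconjugase USP18 was 24.8-fold lower, the ubiquitin-like modifier ISG15 16-fold (61.4 CPM at day 20, 980 at day 15) and its ligase HERC5 19.2-fold. RSAD2, which makes a chain-terminating nucleotide, was 18.4-fold lower (15.4 CPM at day 20, 283 at day 15) and the GTPase MX1 6.82-fold.

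The promoters of IFIT1 and IFIT3 are shown because these genes had the highest CPM among lower effectors whose available promoter held the response element. That of BST2 is shown because it carries the element too while the gene moved the other way, and BST2 was chosen after its values were seen. Sequences are from RefSeq on GRCh38.p14, 250 bases before to 50 after the start site, read 5′ to 3′ along the gene, with capitals marking each match to the core of the element, GAAA, any 2 bases, then GAAA again, searched on both strands (on the other strand TTTC, any 2 bases, then TTTC). The IFIT1 window is chr10:89392373-89392672 on the plus strand, the IFIT3 window chr10:89327747-89328046 on the plus strand and the BST2 window chr19:17405581-17405880 on the minus strand.
IFIT1: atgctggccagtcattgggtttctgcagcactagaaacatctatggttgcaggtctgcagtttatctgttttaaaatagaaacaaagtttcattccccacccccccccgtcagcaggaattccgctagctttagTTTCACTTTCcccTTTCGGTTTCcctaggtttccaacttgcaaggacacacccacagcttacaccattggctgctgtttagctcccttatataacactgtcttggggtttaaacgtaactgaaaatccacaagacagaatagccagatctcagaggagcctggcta
IFIT3: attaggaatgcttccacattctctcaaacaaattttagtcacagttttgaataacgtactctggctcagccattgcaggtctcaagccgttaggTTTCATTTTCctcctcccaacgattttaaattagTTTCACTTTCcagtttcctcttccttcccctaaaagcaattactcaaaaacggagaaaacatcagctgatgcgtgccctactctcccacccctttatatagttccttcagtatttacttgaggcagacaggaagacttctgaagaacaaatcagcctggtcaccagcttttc
BST2: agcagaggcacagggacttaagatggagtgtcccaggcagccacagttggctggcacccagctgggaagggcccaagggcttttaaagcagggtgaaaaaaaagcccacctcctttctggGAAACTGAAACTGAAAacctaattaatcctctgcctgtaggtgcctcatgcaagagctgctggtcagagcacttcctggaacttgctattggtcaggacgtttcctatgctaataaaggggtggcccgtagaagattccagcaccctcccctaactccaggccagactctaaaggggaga

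In IFIT1 the matches begin 116 and 103 bases before the start site, in IFIT3 156 and 122 bases before it, and in BST2 130 and 124 bases before it, where they overlap. Of the 48 effectors, 37 had a promoter in the table and 26 of these (70.3%) held the motif, against 996 of 27305 promoters of the same length (3.65%). Among effectors with a promoter, 21 of 32 lower ones held it and 4 of 4 higher ones did. A match describes the letters of the window and not a site in use.

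The higher effectors were GBP2, BST2, LAMP3, IFI44L, GBP1, IFI44, IFITM2 and TRIM22. BST2, the tetherin that holds budding virus at the membrane, read 135, 135 and 126 CPM at day 20, against 31.4, 32.6 and 26.6 CPM at day 15 (4.39-fold higher, adjusted p = 1.9e-30). GBP2, a GTPase best known as an interferon γ target, was 4.86-fold higher (20.2 ± 1.01 CPM at day 20 against 4.13 ± 0.925 CPM at day 15), and LAMP3, a lysosomal protein of mature dendritic cells, 4.02-fold higher. IFI44L was 2.53-fold higher (39.4 ± 1.04 CPM at day 20 against 15.6 ± 1.16 CPM at day 15).

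Genes of cytosolic RNA sensing and interferon β itself were lower. IFNB1, interferon β, read 0.791, 0.516 and 0.359 CPM at day 20, against 17.6, 15.3 and 17.4 CPM at day 15 (30.1-fold lower, adjusted p = 9e-20). The RNA helicase sensors RIGI (19.4-fold), IFIH1 (9.74-fold) and DHX58 (4.44-fold) and their adaptor MAVS (4.28-fold) were lower too, so that 5 of 5 genes of RNA sensing and interferon β were lower. The signalling factors IRF7 (4.35-fold), IRF9 (4.61-fold) and IRF1 (5.7-fold) were lower. In contrast, 5 of 5 interferon receptor chains were higher, among them IFNAR1 (2.65-fold) and IFNGR2 (2.65-fold), as were STING1 (1.99-fold) and the feedback inhibitor SOCS3 (185 CPM at day 20, 35.3 at day 15, 5.26-fold). Over the sensing and signalling list 15 of 26 were lower and 11 higher. The part of the lower megakaryocyte markers in the interferon genes was not tested.

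MHC class I molecules show internal peptides on nearly all cells, and MHC class II molecules show ingested peptides on specialised cells. Class II genes were higher at day 20, while the list of class I and peptide loading genes divided. The class I heavy chains and B2M were lower in 6 of 6 cases (median -0.65). Library totals alone gave 3 lower and 3 higher among them (median -0.03). Higher members of the list included the chaperones CALR (1.74-fold) and CANX (1.56-fold). Of 25 genes of that list tested, 13 were lower and 8 higher, with a median of -0.43. Library totals alone gave 8 lower, 16 higher and a median of 0.19. The steeper falls were in peptide transport and the immunoproteasome, with 6 of 7 genes lower and a median of -1.96 (-1.34 with library totals alone). TAP1, a subunit of the peptide transporter, read 42.7, 44.7 and 42.4 CPM at day 20, against 342, 353 and 347 CPM at day 15 (8.02-fold lower), TAP2 was 3.89-fold lower, PSMB9 4.25-fold and NLRC5, the class I transactivator, 5.03-fold (37.9 CPM at day 20, 191 at day 15). HLA-E was 2.73-fold lower, with reads of HLA genes uncertain because their sequences are close and vary between people.

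Of 23 class II genes tested, 21 were higher and 1 lower, and the median was 2.76. CIITA, the class II transactivator, read 26.3, 31.7 and 25.6 CPM at day 20, against 2.66, 4.11 and 1.65 CPM at day 15 (10.1-fold higher, adjusted p = 1.6e-08). HLA-DRA (chromosome 6 from 32439842 to 32445046) read 125, 120 and 117 CPM at day 20, against 4.89, 6.62 and 5.26 CPM at day 15 (21.8-fold higher). The chaperones followed: CD74, the invariant chain, was 9.21-fold higher (411 CPM at day 20, 44.7 at day 15), and HLA-DMB, which edits the bound peptide, 25.8-fold. The co-stimulatory gene CD86 was 13.6-fold higher and CD80 3.53-fold. HLA-DOB, which restrains peptide exchange in B cells, was the lower member (0.773 ± 0.273 CPM at day 20 against 5.23 ± 1.11 CPM at day 15). Of 19 class II genes with a promoter in the table, 13 (68.4%) held CCAAT on either strand, against 35.7% of all promoters. In the same libraries 6 of 6 monocyte and macrophage markers were higher, summing to between 2136 and 2203 CPM at day 20 and between 569 and 622 CPM at day 15; their part in the class II genes was not tested.

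**Figure D3:**
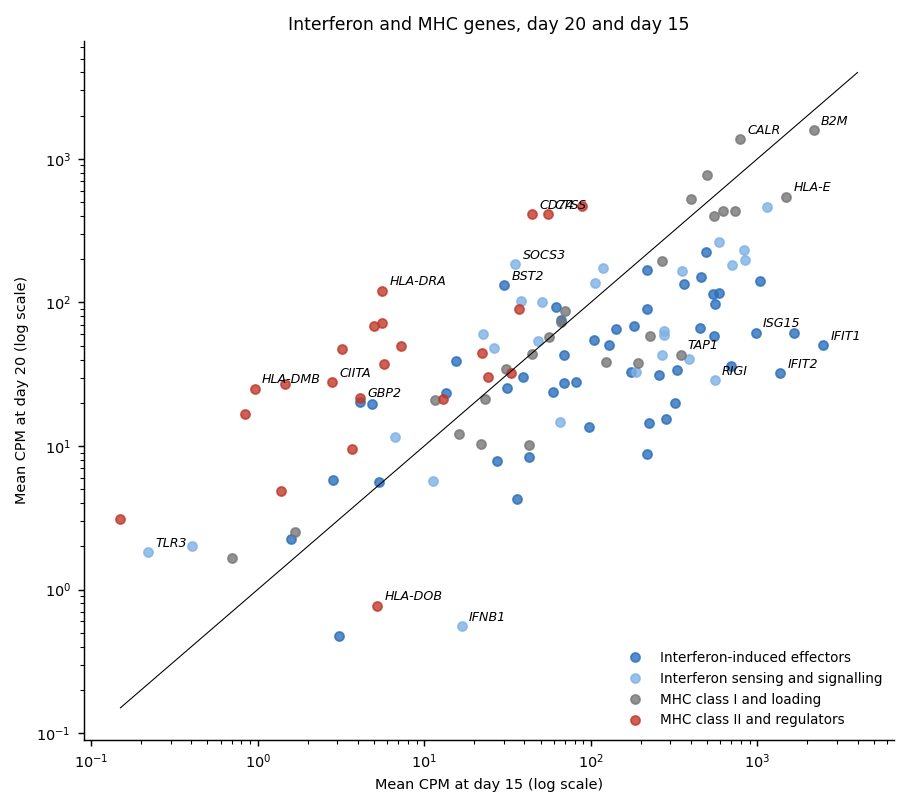
Each point is a gene at its mean CPM at day 20 (vertical) and day 15 (horizontal), both on log axes, n = 3 libraries per day, and the line marks equal levels. Most interferon-induced effectors lie under the line and most MHC class II genes above it, with BST2 and GBP2 above and HLA-DOB under.

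Most myeloid transcription factors were higher, although their summed level was 2169 CPM at day 20 and 2220 CPM at day 15. Of 23 factors tested, 19 were higher and 3 lower (median 1.81). SPI1, the factor that sets macrophage and granulocyte fate, read 404, 396 and 395 CPM at day 20, against 112, 129 and 126 CPM at day 15 (3.26-fold, adjusted p = 2.3e-33). IRF8, of monocytes and dendritic cells, was 7.37-fold higher (76.7 CPM at day 20, 10.4 at day 15), MAF, of macrophages, 8.85-fold, and CEBPA 5.57-fold (37.9 CPM at day 20, 6.8 at day 15). BHLHE41, a factor of alveolar macrophages in the mouse, had the largest rise (23.2-fold, 52.9 ± 3.54 CPM at day 20 against 2.26 ± 0.613 CPM at day 15). The lower factors were ID2 (4.66-fold), ZEB2 (2.78-fold) and MITF (2.62-fold).

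Of 40 monocyte and macrophage receptors, 36 were higher and 2 lower, with a median of 2.20. CSF1R read 748, 727 and 728 CPM at day 20, against 72.4, 78.4 and 83.3 CPM at day 15. The scavenger receptor STAB1 was 6.36-fold higher (582 CPM at day 20, 91.5 at day 15), the lipid receptor TREM2 10.8-fold (93.7 CPM at day 20, 8.76 at day 15), the complement receptor VSIG4 11.3-fold and the lectin CD209 58.2-fold (15.4 CPM at day 20, 0.265 at day 15). CLEC12A (2.53-fold) and LYVE1 (4.32-fold) were the lower ones. All 9 tested LILR genes, a family of leukocyte immunoglobulin-like receptors, were higher (median 2.37), with LILRB5 14-fold higher, and 25 of 28 inhibitory receptors and Siglecs were higher, with CD22 the lower one (7.22 ± 0.68 CPM at day 20 against 54.1 ± 1.5 CPM at day 15). Of 23 Fc receptors and adaptors 19 were higher; FCGR3A rose 11.7-fold and FCGR3B 12.5-fold, although reads can be split between these near-identical genes. BTK, a kinase of B cells, myeloid cells and platelets, was lower at 126 ± 2.52 CPM at day 20 against 856 ± 9.14 CPM at day 15 (6.77-fold).

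Sensing and killing genes of phagocytes divided in part. Of 10 toll-like receptors, 8 were higher and 2 lower. TLR8, which reads single-stranded RNA, stood at 46, 41.4 and 44.7 CPM at day 20, against 4.47, 3.19 and 3.74 CPM at day 15 (11.5-fold higher), TLR2 was 5.37-fold higher and TLR4 3.72-fold. TLR5, the flagellin receptor, read 7.57, 8 and 7.89 CPM at day 20, against 112, 97.5 and 111 CPM at day 15 (13.7-fold lower), TLR9 was 2.28-fold lower, and IRAK2, a kinase of the pathway, 14.4-fold lower (29.1 CPM at day 20, 421 at day 15). In the phagocyte oxidase list 9 of 12 were higher and RAC1 was lower (3.37-fold).

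Complement genes were higher in 21 of 26 cases (median 1.66). The 3 C1q chains rose together, C1QB 27.4-fold, C1QA 20-fold and C1QC 16-fold, and C1QC read 341, 341 and 336 CPM at day 20, against 20.2, 20 and 23.2 CPM at day 15. C2, C1R and C1S were higher too, C2 at 47.3 ± 3.44 CPM at day 20 against 2.99 ± 0.867 CPM at day 15. The lower genes included CD55, a surface inhibitor of complement (4.47-fold), and CD46, another (2.72-fold).

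Lysosomal genes were higher in 29 of 40 cases (median 1.03). GPNMB, a glycoprotein of lipid-laden macrophages and osteoclasts, read 656, 629 and 621 CPM at day 20, against 9.87, 10.8 and 10.3 CPM at day 15 (61.7-fold higher, adjusted p = 2.5e-45). ACP5, the tartrate-resistant phosphatase of the same cells, was 22.8-fold higher (201 CPM at day 20, 8.8 at day 15), CTSL 8.63-fold, CTSB 7.8-fold and CTSD 3.17-fold (2752 CPM at day 20, 867 at day 15). CTSA, a protective carboxypeptidase, was 3.04-fold lower and CTSW, of cytotoxic cells, 2.73-fold lower.

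Granule genes separated the granulocytes. Of 16 neutrophil primary granule genes, 12 were higher, among them CTSG (410 CPM at day 20, 65.3 at day 15, 6.28-fold), LYZ (3519 CPM at day 20, 787 at day 15, 4.47-fold) and MPO (11859 CPM at day 20, 3532 at day 15, 3.36-fold). Of 25 specific granule and S100 genes, 21 were higher, including the late genes MMP8 (31.6 CPM at day 20, 1.87 at day 15, 16.8-fold) and CAMP (54 CPM at day 20, 3.71 at day 15, 14.4-fold). LCN2, a siderophore-binding protein of the same granules, was lower at 21.2, 24.4 and 25.1 CPM at day 20, against 174, 185 and 186 CPM at day 15 (7.71-fold lower), and PADI4, which citrullinates histones, was 5.12-fold lower. Eosinophil genes were mixed, 8 of 15 higher and 7 lower (3 with library totals alone): the granule genes EPX (1.97-fold) and PRG3 (2.02-fold) were lower, and the eotaxin receptor CCR3 was 20-fold higher (22.5 ± 0.561 CPM at day 20 against 1.1 ± 0.451 CPM at day 15). Among mast cell and basophil genes 20 of 23 were higher, with TPSAB1 at 35.5 ± 1.17 CPM at day 20 against 2.35 ± 0.502 CPM at day 15; TPSAB1 and TPSB2 can share reads.

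**Figure D4:**
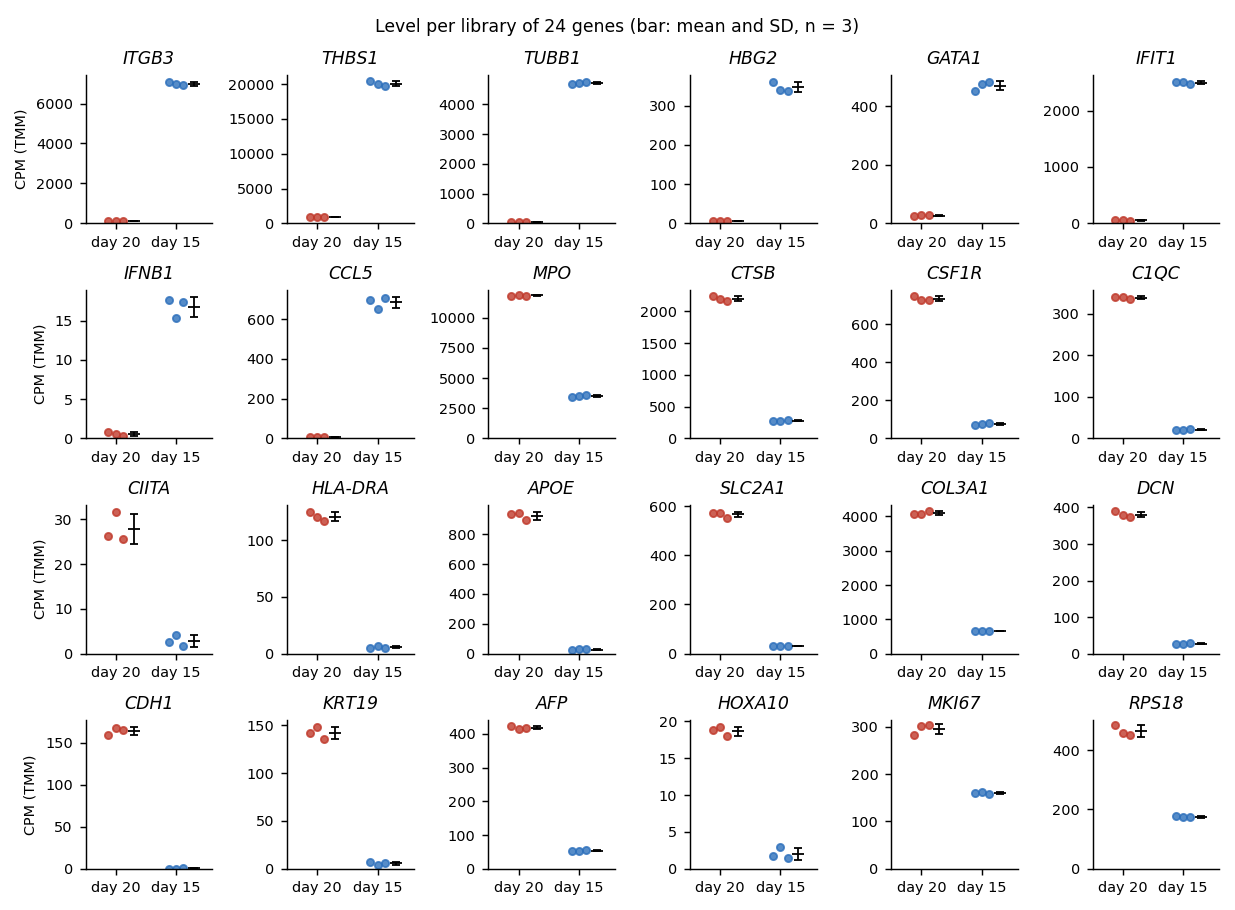
Points are the CPM of single libraries on linear axes that start at 0, day 20 (red) left of day 15 (blue), and the bar beside each group is its mean and SD (n = 3). ITGB3, THBS1, TUBB1, HBG2, GATA1, IFIT1, IFNB1 and CCL5 are lower at day 20 and the other 16 genes higher, without overlap between the days in any of the 24 panels.

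Platelet and red cell lists had the lowest medians of the comparison. Megakaryocytes and red cell precursors share GATA1, TAL1 and their partners, and then build surface glycoproteins, granules and a tubulin coil, or haemoglobin and a spectrin skeleton. On the list of transcription factors of these lineages, 21 of 28 genes were lower and 7 higher (median -1.43). GATA1 read 25.1, 27.4 and 26.9 CPM at day 20, against 453, 476 and 482 CPM at day 15 (17.8-fold lower), TAL1 was 34.2-fold lower, its red cell partner KLF1 21.4-fold (1.73 CPM at day 20, 37 at day 15), GFI1B 24.6-fold and NFE2, needed for platelet release, 13.2-fold. The list also held TRIM58, a ligase of red cell enucleation in the mouse, which fell furthest (81.8-fold, 14.8 ± 1.31 CPM at day 20 against 1212 ± 8.91 CPM at day 15). BCL11A, the repressor of fetal globin, was higher at 23.2, 20.5 and 24 CPM at day 20, against 4.35, 3.82 and 5.31 CPM at day 15 (5-fold), as was SOX6 (5.35-fold), its partner.

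Of 28 platelet receptors, 26 were lower and the median was -5.14. ITGB3, the β3 chain of the fibrinogen receptor, read 120, 132 and 128 CPM at day 20, against 7103, 6983 and 6904 CPM at day 15 (log2 fold change -5.79 ± 0.036). The 5 genes of the von Willebrand and collagen receptors (GP1BA, GP1BB, GP5, GP9 and GP6) were lower with a median of -6.55. SELP, P-selectin, was 48.2-fold lower (18.2 CPM at day 20, 874 at day 15), CLEC1B, the podoplanin receptor, 35.1-fold, and F2R, the thrombin receptor, 20.4-fold. The higher ones were CD36 (3.43-fold) and FCGR2A (3.27-fold), which macrophages share.

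Granule cargo was lower in 25 of 28 genes (median -3.37). THBS1, thrombospondin, read 888, 908 and 906 CPM at day 20, against 20406, 20033 and 19775 CPM at day 15 (22.3-fold lower), PPBP was 76.8-fold lower, F13A1, the clot-linking transglutaminase, 52.5-fold, EGF 115-fold and TGFB1 11.3-fold (280 CPM at day 20, 3173 at day 15). Cytoskeletal and activation genes were lower in 37 of 38 cases (median -3.50), with PLCB2, a phospholipase of neutrophils and platelets, the higher one (2.07-fold); library totals alone gave 3 higher. The structural genes TLN1 (940 CPM at day 20, 10944 at day 15), VCL (189 CPM at day 20, 3522 at day 15) and FLNA (1637 CPM at day 20, 9890 at day 15) were 11.6-fold, 18.7-fold and 6.04-fold lower. Among the 12 largest losses in CPM of any gene were also NEAT1, a nuclear long non-coding RNA (884 ± 18.1 CPM at day 20 against 6948 ± 103 CPM at day 15), ACTB (7385 ± 156 CPM at day 20 against 13155 ± 173 CPM at day 15) and CMIP (199 ± 4.41 CPM at day 20 against 3553 ± 34.3 CPM at day 15). Of the platelet receptor and granule genes with a promoter in the table, 6 of 41 (14.6%) held AGATAA on either strand, against 10.5% of all promoters.

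Of 33 red cell genes tested, 30 were lower and 1, GYPC, was higher, or 2 higher with library totals alone (median -3.43), and 9 of 9 tested globin chains were lower. HBG2, a fetal γ-globin that can share reads with HBG1, read 5.78, 5.24 and 5.08 CPM at day 20, against 362, 340 and 339 CPM at day 15. HBD, the δ chain, was 70-fold lower (7.43 CPM at day 20, 520 at day 15), the nuclear protein HEMGN 103-fold, the blood group protein KEL 78.9-fold (22.4 CPM at day 20, 1771 at day 15) and the ankyrin ANK1 32.6-fold. Haem synthesis and iron genes were mixed, 15 of 30 higher and 13 lower, or 7 lower with library totals alone. CPOX (5.95-fold) and ALAS2 (6.1-fold) of haem synthesis and the iron exporter SLC40A1 (190 CPM at day 20, 1386 at day 15, 7.28-fold) were lower. HMOX1, which breaks haem down, read 225, 216 and 208 CPM at day 20, against 65.9, 71.2 and 73.4 CPM at day 15 (3.08-fold higher), and CD163, the receptor that clears haemoglobin, was 4.89-fold higher.

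Several families contained members that moved far in opposite directions. Changes of at least 2-fold also ran both ways over all tested genes, 23.7% called higher and 22.2% lower. Among 26 integrin chains, 15 were higher and 9 lower. The platelet pair ITGA2B and ITGB3 was lower with a median of -5.59, and 4 of 5 leukocyte β2 integrin chains were higher with a median of 1.96. ITGB2, the shared β2 chain, read 1293, 1311 and 1283 CPM at day 20, against 278, 311 and 306 CPM at day 15 (4.34-fold higher), and ITGAX, which pairs with it on dendritic cells and macrophages, was 9.25-fold higher. The laminin-binding ITGA6 (3.46-fold lower) and ITGA3 (6.36-fold higher) also parted.

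Purinergic receptors divided the same way. P2RY12, the ADP receptor blocked by clopidogrel, read 0.699, 0.516 and 0.538 CPM at day 20, against 143, 145 and 140 CPM at day 15, a log2 fold change of -7.92 ± 0.13. P2RY1 (45.8-fold) and P2RX1 (11.3-fold) were lower with it, while 7 of 7 other tested P2Y receptors were higher (median 1.39), among them P2RY6 (20.4 CPM at day 20, 3.8 at day 15, 5.41-fold) and P2RY13 (19.7 CPM at day 20, 6.21 at day 15, 3.15-fold), receptors of phagocytes. Of the adenosine receptors, ADORA2A was 11.9-fold lower and ADORA3 5.46-fold higher.

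Eicosanoid genes followed with 20 of 31 higher and 9 lower. The 6 genes of cyclooxygenase-1 and the thromboxane and prostacyclin response of platelets were lower, with a median of -3.77. PTGS1, cyclooxygenase-1, read 191, 194 and 189 CPM at day 20, against 2094, 2080 and 2114 CPM at day 15 (11-fold lower), and TBXA2R, the thromboxane receptor, was 32.2-fold lower. The inducible cyclooxygenase PTGS2 was 5.51-fold higher (44.9 ± 1.97 CPM at day 20 against 8.16 ± 0.488 CPM at day 15) and 8 of 8 leukotriene genes were higher (median 1.09), among them LTA4H (3.58-fold) and ALOX5AP (3.49-fold). PTGIS, prostacyclin synthase, read 153, 150 and 156 CPM at day 20, against 2.11, 2.03 and 1.77 CPM at day 15 (77.7-fold higher) while PTGIR, its receptor, read 16, 15.7 and 13.6 CPM at day 20, against 654, 690 and 687 CPM at day 15 (44.9-fold lower).

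Among genes of glucose use, transporters, hexokinases and the PDK kinases held members that moved in opposite directions. Of 37 genes of glucose transport and glycolysis, 19 were higher and 11 lower, or 6 lower with library totals alone (median 0.31). At least 2-fold, 9 were higher and 7 lower, near the shares of all tested genes, 23.7% and 22.2%. SLC2A1, the glucose transporter GLUT1, read 574, 572 and 553 CPM at day 20, against 32.1, 30.6 and 30.2 CPM at day 15 (18.3-fold higher). SLC2A3, the neuronal and platelet transporter GLUT3, read 241, 236 and 236 CPM at day 20, against 2909, 2806 and 2855 CPM at day 15 (12-fold lower), with reads that can be split with its near copy SLC2A14 (11.1-fold lower). Of the hexokinases, HK1 was 5.83-fold lower (175 CPM at day 20, 1019 at day 15) and HK2 3.95-fold higher (129 CPM at day 20, 32.7 at day 15). PDK1 was 7.49-fold lower and PDK4 9.07-fold higher, both inhibitory kinases of pyruvate dehydrogenase.

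Sterol genes divided between synthesis and export. Of 22 synthesis and uptake genes 12 were lower and 8 higher (median -0.32), but library totals alone gave 5 lower, 13 higher and a median of 0.30. In contrast, 12 of 12 export and lipid handling genes were higher (median 2.74). INSIG1, the brake on sterol sensing, read 57.9, 52.8 and 56.1 CPM at day 20, against 985, 994 and 983 CPM at day 15 (17.8-fold lower), and SQLE, the squalene epoxidase, was 4.84-fold lower. APOE, which carries exported lipid, read 934, 946 and 896 CPM at day 20, against 24, 28.4 and 29.2 CPM at day 15 (34-fold higher), the transporters ABCA1 and ABCG1 were 12.1-fold and 14.7-fold higher, and NR1H3, the liver X receptor that controls them, 3.84-fold higher (49.1 ± 1.93 CPM at day 20 against 12.8 ± 0.314 CPM at day 15).

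**Figure D5:**
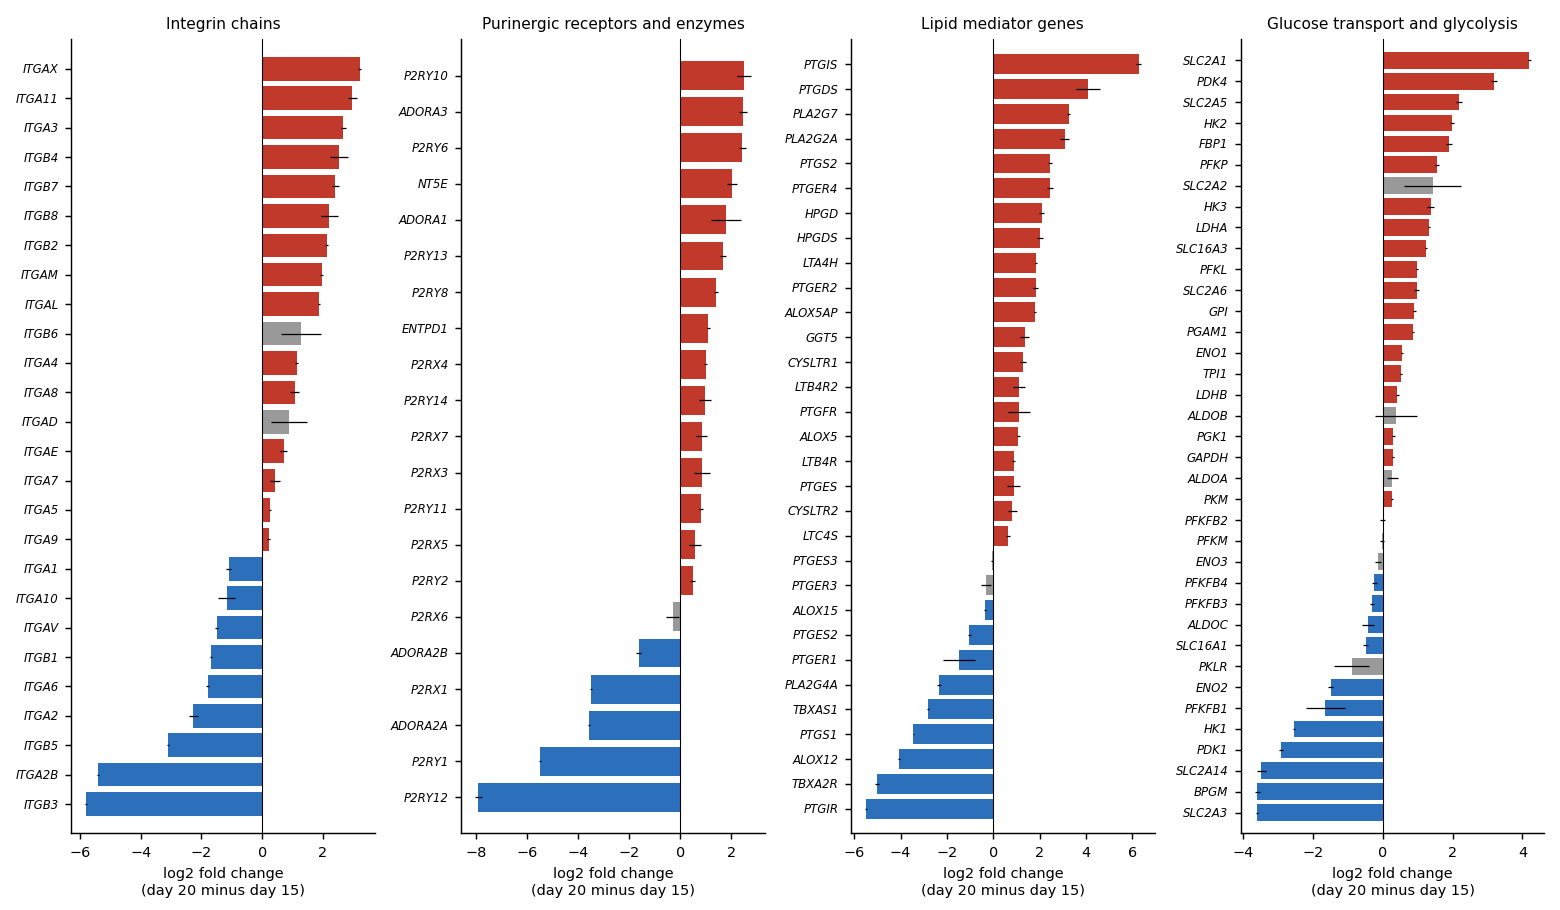
Bars are log2 fold changes (day 20 minus day 15) with their standard errors, red for genes called higher, blue for genes called lower and grey for genes not called. In each of the 4 lists long bars run both ways, from ITGB3, P2RY12, PTGIR and SLC2A3 below to ITGAX, P2RY10, PTGIS and SLC2A1 above.

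Of 30 chemokine ligands tested 13 were higher and 11 lower, near the 40.6% higher and 36% lower of all tested genes. CCL5, which platelets and T cells store, read 9.7, 8.05 and 7.83 CPM at day 20, against 697, 652 and 705 CPM at day 15 (80.4-fold lower), and CXCL11 (62-fold) and CXCL10 (10-fold), both interferon targets, were lower. CCL22, of macrophages and dendritic cells, read 101, 98.7 and 91.9 CPM at day 20, against 8.06, 6.48 and 6.99 CPM at day 15 (13.5-fold higher), CXCL8 was 3.4-fold higher (622 CPM at day 20, 183 at day 15) and CXCL14 9.43-fold. Chemokine receptors were higher in 14 of 20 cases, with CCR6 19.2-fold higher, and CCR4, of type 2 T cells and platelets, was 82.4-fold lower (2.13 CPM at day 20, 175 at day 15). Among inflammatory cytokines 16 of 29 were higher and 9 lower, with IL1B at 155, 141 and 154 CPM at day 20, against 18.4, 18.6 and 19.4 CPM at day 15 (7.99-fold higher) and TNF 3.03-fold lower. Potassium channels held the comparison's largest single fall among the listed genes, KCND3 at 0.994 ± 0.34 CPM at day 20 against 249 ± 8.1 CPM at day 15 (251-fold lower), beside 19 of 45 members that were higher and 15 that were lower. These counts too lie near the shares of all tested genes.

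Matrix genes of stroma were higher. Of 41 collagen chains tested, 25 were higher and 10 lower (median 1.19), and of 11 fibrillar chains 8 were higher. COL3A1 (chromosome 2 from 188974320 to 189012746) read 4079, 4059 and 4163 CPM at day 20, against 646, 664 and 664 CPM at day 15 (6.23-fold higher), COL1A2 was 3.68-fold higher and COL5A1 4.63-fold. The basement membrane chains COL4A1 (3.42-fold) and COL4A2 (163 CPM at day 20, 1287 at day 15, 7.9-fold) were lower, and COL24A1 read 19.3, 21.2 and 19.2 CPM at day 20, against 1847, 1847 and 1813 CPM at day 15 (92.1-fold lower). Of 47 stromal and smooth muscle genes, 32 were higher and 7 lower, or 4 lower with library totals alone (median 1.05): DCN, decorin, read 389, 379 and 374 CPM at day 20, against 26.9, 25 and 28.7 CPM at day 15 (14.2-fold), LUM, lumican, was 7.25-fold higher and IGFBP5 19.9-fold, while the contractile genes ACTA2 and CNN1 were 2.55-fold and 2.84-fold lower. Metalloproteinases and inhibitors were higher in 21 of 31 cases, with MMP7 19.7-fold and ADAMTS5 26.8-fold higher. The inhibitors themselves parted, TIMP3 5.01-fold lower and TIMP2 4.89-fold higher.

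Epithelial genes were called higher in 31 of 41 tested cases and lower in 7 (median 2.39). CDH1, E-cadherin, read 159, 168 and 165 CPM at day 20, against 0.211, 0.193 and 0.844 CPM at day 15, a log2 fold change of 8.55 ± 0.13 (adjusted p = 1.2e-38). CDH3, P-cadherin, read 83.4, 77.3 and 78.4 CPM at day 20, against 0.928, 1.35 and 1 CPM at day 15 (73.3-fold higher), KRT19 was 23.4-fold higher (142 CPM at day 20, 5.98 at day 15), KRT8 6.45-fold (663 CPM at day 20, 103 at day 15) and the desmosomal DSP 5.5-fold (300 CPM at day 20, 54.5 at day 15). The lower genes JUP (4.84-fold), TJP1 (4.18-fold) and F11R (3.91-fold) encode junction proteins, and F11R is also a platelet protein. Of the 10 factors and cadherins of mesenchymal transition, 8 were higher, with ZEB1 at 10 ± 1.69 CPM at day 20 against 2.05 ± 0.434 CPM at day 15 and VIM at 468 ± 13.1 CPM at day 20 against 208 ± 4.62 CPM at day 15, and ZEB2 and SNAI1 were lower. Epithelial and mesenchymal genes were thus higher in the same libraries.

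The largest rises among genes with at least 50 CPM on a day included genes outside the lists. UPK3B, an uroplakin of mesothelium and urothelium, read 68.7, 57.5 and 57.6 CPM at day 20, against 0.253, 0.338 and 0.482 CPM at day 15 (168-fold higher). PODXL, of podocytes and vascular and mesothelial lining, was 85.4-fold higher (678 CPM at day 20, 7.94 at day 15), PDPN, podoplanin, 95.6-fold (83.3 CPM at day 20, 0.889 at day 15), LRP2, megalin, 83.5-fold and the monocarboxylate transporter SLC5A12 88.3-fold. STMN2, a tubulin-binding protein of neurons, was 91.5-fold higher (53.3 CPM at day 20, 0.585 at day 15). At the other end were ADCY8, an adenylyl cyclase (193-fold lower, 0.433 CPM at day 20, 84.7 at day 15), PDZK1IP1 (104-fold) and BEND2 (152-fold).

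On the list of secreted proteins of liver and yolk sac, 38 of 49 tested genes were higher (median 2.14), as were 8 of 9 tested apolipoproteins. AFP, α-fetoprotein, read 423, 416 and 418 CPM at day 20, against 52.1, 52.4 and 56 CPM at day 15 (7.83-fold higher), ALB, albumin, read 127, 117 and 123 CPM at day 20, against 13, 12 and 10.9 CPM at day 15 (10.2-fold higher), TTR was 18.6-fold higher and SERPINA1 5.92-fold. The list also held GATA4, a transcription factor of endoderm and heart, which was its largest fall (1.82 ± 0.865 CPM at day 20 against 14.4 ± 0.979 CPM at day 15, 7.88-fold lower). Endothelial genes went the other way, 21 of 38 lower and 9 higher (median -1.09). CDH5, VE-cadherin, was 3.95-fold lower at 1.84 ± 0.408 CPM at day 20 against 7.23 ± 1.33 CPM at day 15, GJA4 15.8-fold lower, and VWF (78.3-fold), which platelets also store, lower still. Marker sums moved with these lists. Stromal markers summed to between 5995 and 6082 CPM at day 20 and between 1291 and 1349 CPM at day 15, epithelial markers to between 1049 and 1098 CPM at day 20 and between 157 and 163 CPM at day 15, and hepatic markers to between 619 and 641 CPM at day 20 and between 70.0 and 71.7 CPM at day 15. Of 5 stromal markers 4 were higher, and PDGFRA was not called (59.5 CPM at day 20, 59.7 at day 15). COL3A1, at 4100 CPM at day 20, made up most of the stromal sum. Endothelial markers summed to between 14.4 and 15.4 CPM at day 20 and between 26.8 and 29 CPM at day 15. Of these, 3 of 4 were lower and EMCN was higher (1.78-fold). The part of these markers in the lists was not tested.

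HOX genes, which give cells their position along the body axis, were higher without exception among those called. Of 34 tested, 33 were higher, 1 (HOXD11) was not called and none was lower, with a median of 2.24. The list holds 39 genes, summing to 212 CPM at day 20 and 55.8 at day 15, and the rest were too low to test. A gene low at day 15 could pass the filter through day 20, which favours higher calls in this count. HOXD11 was called higher with library totals alone (log2 fold change 2.23, edgeR adjusted p = 0.014) and without day 15 replicate 2 (2.32, adjusted p = 0.047). The count was 11 of 11 in the HOXA cluster, 10 of 10 in HOXB, 7 of 7 in HOXC and 5 of 6 in HOXD. HOXA10 read 18.8, 19.2 and 18 CPM at day 20, against 1.77, 2.95 and 1.41 CPM at day 15 (9.27-fold higher), HOXA9, known for blood stem cells, 9.46, 10 and 7.89 CPM at day 20, against 1.81, 1.55 and 1.81 CPM at day 15 (5.26-fold), and HOXC10 9.31, 7.22 and 6.72 CPM at day 20, against 0.295, 0.822 and 0.884 CPM at day 15 (11.6-fold). HOXB13 and HOXA13, of the posterior end, were 10.4-fold and 7.94-fold higher.

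MEIS1, which binds DNA together with HOX proteins, was lower at 38.2, 42.4 and 36 CPM at day 20, against 996, 986 and 995 CPM at day 15 (25.5-fold lower). Of 27 stem and fetal regulators 14 were higher and 11 lower. CD34, the surface marker of early progenitors, read 1.25, 1.55 and 1.14 CPM at day 20, against 4.51, 5.75 and 6.15 CPM at day 15 (4.16-fold lower), MLLT3, a gene of stem cell self-renewal, was 6.42-fold lower and LIN28A 5.94-fold. HMGA2 (2.23-fold) and PROM1 (10.4 ± 1.12 CPM at day 20 against 0.477 ± 0.14 CPM at day 15) were higher. Imprinted growth genes were higher in 11 of 18 cases, with IGF2 at 144, 139 and 143 CPM at day 20, against 31.6, 35.8 and 38.6 CPM at day 15 (4.01-fold higher) and DLK1, an imprinted Notch-like ligand, 6.92-fold lower (206 CPM at day 20, 1428 at day 15).

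Of 67 TGF-β, BMP and WNT genes, 40 were higher and 17 lower (median 0.82). BMP4 read 56.9, 54.8 and 56 CPM at day 20, against 0.844, 1.26 and 2.01 CPM at day 15 (40.3-fold higher) and BMP6, of megakaryocytes and liver, 15, 14.9 and 17 CPM at day 20, against 528, 536 and 544 CPM at day 15 (34.3-fold lower). WNT2 was 46-fold higher (18.1 CPM at day 20, 0.385 at day 15), WNT5A 5.02-fold, and AXIN2, a target and brake of WNT signalling, 11.3-fold (14.4 ± 1.47 CPM at day 20 against 1.26 ± 0.128 CPM at day 15). TGFBR3 was 12.7-fold higher and the inhibitory SMAD6 7.59-fold lower.

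Genes of cell division and of the ribosome were higher by a narrow margin that nearly all members shared. Of 47 replication genes 42 were higher (median 0.85) and of 54 mitosis genes 52 (median 1.01). MCM4, of the replicative helicase, read 155, 152 and 150 CPM at day 20, against 67.2, 64.9 and 65 CPM at day 15 (2.32-fold) and TOP2A 261, 269 and 280 CPM at day 20, against 130, 121 and 126 CPM at day 15 (2.15-fold). MYBL2 (3.11-fold) and BUB1 (1.64-fold) were the lower mitosis genes, and BUB1 lost its call with library totals alone (log2 fold change -0.09). Of 79 cytosolic ribosomal proteins, 78 were higher and none lower, between 0.23 and 1.40 on the log2 scale among those called, with RPS18 at 486, 457 and 451 CPM at day 20, against 178, 173 and 175 CPM at day 15 (2.65-fold). Nuclear genes of oxidative phosphorylation moved less, 39 of 75 higher and 17 lower (median 0.15), and library totals alone gave 66 and 4. The 13 mitochondrially encoded proteins had a median of -0.00, with 3 higher and 3 lower, and library totals alone gave 12 and 1. Leaving out day 20 replicate 1 gave 1 higher, and leaving out day 20 replicate 2 or 3 gave 1 lower.

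Regulators of the G1 phase were more uneven than the genes of division. Of 7 CDK inhibitors 5 were lower and 1 higher. CDKN1A, the p21 inhibitor induced by p53, read 180, 187 and 181 CPM at day 20, against 1234, 1271 and 1309 CPM at day 15 (6.96-fold lower), CDKN2D was 17.1-fold lower and CDKN1C, an imprinted inhibitor, 6.24-fold higher (61.3 ± 5.82 CPM at day 20 against 9.76 ± 1.46 CPM at day 15). Of the D cyclins, CCND3 was 10.6-fold lower (169 CPM at day 20, 1798 at day 15) while CCND1 and CCND2 were 2.45-fold and 2.48-fold higher. Of 30 genes of the BCL2 family, death receptors, caspases and their inhibitors, 18 were lower and 11 higher, and the lower ones held both death and survival genes. Of 8 BH3-only genes, which promote death, 6 were lower (median -2.18): BBC3, the p53 target PUMA, read 21.2, 19.4 and 20.1 CPM at day 20, against 490, 512 and 563 CPM at day 15 (25.8-fold lower), and BCL2L11, BIM, was 8.34-fold lower. The survival gene BCL2L1, on which platelets depend, was 12.8-fold lower (50.1 CPM at day 20, 643 at day 15), and the survival genes BCL2L2 (3.32-fold) and BIRC2 (2.01-fold) were lower with it, while BCL2 (3.6-fold) and BCL2A1 (4.11-fold) were higher. EGR1, an early response gene, read 549, 528 and 555 CPM at day 20, against 100, 105 and 103 CPM at day 15 (5.29-fold higher), and GADD45A 34.6, 37.7 and 34.2 CPM at day 20, against 308, 316 and 329 CPM at day 15 (8.94-fold lower).

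A grouping by the letters before the first digit of the symbol gave 211 families with at least 10 tested members. The highest medians were those of KRT (4.70, 13 of 14 higher), SYT (2.60), HLA (2.58), TLR (2.41), HOXA (2.40), ADAMTS (2.06, 15 of 19 higher), HOXB (1.90) and HS (1.84). The lowest were those of CXCL (-2.64, 7 of 11 lower), CAPN, the calpain proteases (-1.37), SP (-1.03), NPIPB (8 of 11 lower and none higher), CDKN (-0.98), KLF (-0.94, 8 of 15 lower), MARCHF (-0.83) and LY (-0.79). Roots such as SP, HS and LY join unrelated genes, and the NPIPB genes are near-identical copies whose reads can be split. On the epithelial list 6 of 12 keratins were not tested, and a gene low at day 15 could pass the filter through day 20.

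Set among the 4 days of the series, these genes did not share a course. The mean of IFIT1 was 63.4 CPM at day 10, 2491 at day 15, 50.5 at day 20 and 12.1 at day 25, so that its level was highest at day 15. PTCRA stood at 7.48 CPM at day 10, 183 at day 15, 1.64 at day 20 and 6.11 at day 25, while CSF1R stood at 24.8 CPM at day 10, 78 at day 15, 734 at day 20 and 1374 at day 25 and GPNMB at 0.11 CPM at day 10, 10.3 at day 15, 635 at day 20 and 1777 at day 25. CDH1 stood at 0.83 CPM at day 10, 0.416 at day 15, 164 at day 20 and 29.1 at day 25 and COL3A1 at 545 CPM at day 10, 658 at day 15, 4100 at day 20 and 2223 at day 25.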

How the data were processed

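Total RNA was extracted with Trizol, made into LM-Seq libraries from 100 ng and read as single reads on a NovaSeq, per the labels' protocols. The deposited table holds the authors' raw counts for 36601 genes on GRCh38, per the submitters' processing notes. The sources used here do not name the aligner, counter, annotation or strand setting, so antisense and overlapping genes cannot be told apart, and reads of near-identical genes may be split. The 235 rows without a symbol held 0.091% of counts. Coordinates are from GENCODE v29.

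Counts were tested with edgeR 4.0.16 in R 4.3.3 (quasi-likelihood fit, TMM scaling, filterByExpr with a minimum count of 10) on all 12 libraries of the series, 3 at each of 4 days, which share 1 estimate of the spread; the contrast was day 20 minus day 15, adjusted by Benjamini-Hochberg over 20183 genes. Fold changes are edgeR's fitted values, and a fold against a day at 0 counts uses a floor of 3 counts over that day. The fit was tested on counts simulated for day 20 against day 15 over 17184 genes. Of these, 67, 67 and 66 were changed 1.5-fold, 2-fold and 4-fold, and it recovered 59.7%, 73.1% and 92.4% of them. Of its 159 calls there, 5.7% were false. In the real comparison 76.6% of genes were called, so the simulation does not give the share of false calls among them. Alternatives were DESeq2 1.42.0, limma 3.58.1 voom, other scalings, filters and depths, a replicate block and leaving out each library. The median log2 fold changes of lists held when genes at 0 counts on a day were set at their bound.

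Genes were named as the largest rises and falls of each list with at least 5 CPM, the 12 largest gains, losses, rises and falls of all, and a fixed panel. A further 73 named genes lie outside that rule and were chosen after their values were seen. Members and lists were chosen with earlier results of these data known. Lists are described by counts and medians beside those of all tested genes. Floors cover counting error only, while SDs and the standard errors of the quasi-likelihood fit also hold the spread between libraries. Some genes of the lists are not reported here by name.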

Additional observations from a re-analysis of the deposited data

How the results depend on the processing

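The counts of genes called over all genes stayed within 1.5 times of 8197 higher and 7271 lower under scaling by DESeq2's size factors, stricter or no filtering, the 6 libraries alone, a replicate block, equal depth, limma's voom and DESeq2, which called between 7265 and 9746 genes higher and between 6334 and 7410 lower. Requiring a change beyond 1.5-fold (glmTreat) called 5588 higher and 5072 lower. An adjusted p under 0.01 called 7427 higher and 6671 lower, and leaving out 1 library gave 7952 to 8066 higher and 7085 to 7141 lower. With library totals alone 4530 genes were lower and 8038 were higher at least 2-fold, because the median of all genes moved by 0.63.

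By that scaling the medians of 4 lists changed sign, to 0.19 for MHC class I, 0.52 for G1 cyclins and CDK inhibitors, 0.41 for early response genes and 0.05 for cytotoxic effectors; without a filter they were 0.13 for G1 cyclins and 0.02 for early response genes. The T-cell receptor complex had -0.59 with the stricter filter and -0.56 at equal depth, where fewer of its genes were tested. CD2, at -0.07 and not called, had log2 fold changes of 0.54 with library totals, 0.16 without a filter, 0.10 at equal depth, 0.18 without day 15 replicate 1, and 0.08, -0.35 and 0.02 without day 20 replicates 1, 2 and 3; CD5 had 0.30 with library totals.

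The replicate block gave 8109 genes higher and 7192 lower. Same-numbered libraries did not deviate together (r = -0.01, 0.021 and -0.057 over 11458 genes), and differently numbered ones had r between -0.036 and 0.045. These deviations could be technical, so they cannot tell whether the numbers pair the samples. Genes under about 1 CPM, the CD3 genes among them, rest on few counts.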
